A study of Homo sapiens with 6 samples.

Results

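The Notch pathway genes described here are 10 in number: the receptors NOTCH1, NOTCH2 and NOTCH3, the ligands JAG1, JAG2 and DLL1, the nuclear partners RBPJ and MAML1, and the targets HES1 and HEY1. They were taken by name from a table of 58302 gene entries, with earlier results of these data known, and all 10 matched an entry. RNA sequencing counts were available for 6 libraries of Ker-CT, human keratinocytes made immortal by expression of telomerase and CDK4. Of these, 3 libraries came from cells given siRNA against KMT2C (siKMT2C), a histone methyltransferase that acts mainly at enhancers, and 3 from cells given a negative-control siRNA (siNC). Every culture of both groups had received the M5 cocktail for 24 h (TNF-α, oncostatin M, IL-22, IL-17A and IL-1α, at 10 ng/ml each), which is used to model psoriasis, so the comparison is between siRNAs within stimulated cells. Ker-CT is a single immortalised line, and the labels do not say whether the libraries of a group came from separate cultures, so p-values measure only the spread between these libraries.

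Notch receptors are single-pass membrane proteins that are cut when a ligand of the Jagged or Delta family on a neighbouring cell binds and pulls on them. The freed intracellular domain enters the nucleus, joins the DNA-binding protein RBPJ and a Mastermind coactivator such as MAML1, and switches on genes of the HES and HEY repressor families. In epidermis the pathway is known for driving keratinocytes out of the basal layer and into differentiation, and DLL1 is known as a ligand of basal, stem-like keratinocytes.

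RBPJ recognises the letters TGGGAA, so the bases just before the gene starts are shown for the canonical target HES1, which carries a pair of matches, for NOTCH2, which carries none, and for RBPJ, whose windows differ among its starts. Each window is the 250 bases before a RefSeq start (GRCh38.p14), written 5′ to 3′ on the gene's strand, with matches to TGGGAA on either strand in capitals.
HES1, chr3:194135898-194136147, plus strand: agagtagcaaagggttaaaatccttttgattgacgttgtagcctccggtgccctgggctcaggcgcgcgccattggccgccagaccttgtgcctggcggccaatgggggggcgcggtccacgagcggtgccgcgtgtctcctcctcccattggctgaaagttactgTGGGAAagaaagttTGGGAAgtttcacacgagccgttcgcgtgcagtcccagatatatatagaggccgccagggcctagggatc
NOTCH2, chr1:120069663-120069912, minus strand: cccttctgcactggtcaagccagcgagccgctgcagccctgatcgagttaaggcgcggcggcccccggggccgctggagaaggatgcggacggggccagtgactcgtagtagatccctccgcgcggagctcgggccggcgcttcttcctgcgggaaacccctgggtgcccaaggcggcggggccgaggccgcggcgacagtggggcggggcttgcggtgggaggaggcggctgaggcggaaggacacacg
RBPJ, chr4:26319496-26319745, plus strand: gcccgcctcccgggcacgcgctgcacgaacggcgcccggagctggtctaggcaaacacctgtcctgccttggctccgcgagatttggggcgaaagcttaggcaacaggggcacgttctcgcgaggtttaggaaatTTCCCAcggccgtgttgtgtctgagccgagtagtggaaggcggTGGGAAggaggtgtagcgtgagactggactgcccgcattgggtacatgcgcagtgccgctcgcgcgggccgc
In HES1 the matches begin 84 and 70 bases before the start, both in the same orientation. A window with 2 or more matches to TGGGAA is uncommon, since 2.90% of 35116 RefSeq windows of this length hold that many and 20.9% hold at least 1. RefSeq windows were at hand for 8 of the 10 genes, 12 windows in all, and those of NOTCH1, NOTCH2, NOTCH3, JAG1, JAG2 and MAML1 hold no TGGGAA. RBPJ has 5 windows, of which the window shown holds 2 matches, 1 on each strand, and the other 4 hold none. The letters CACNAG, to which HES proteins bind, occur 3 times in the HES1 window. Single matches lie in the windows of NOTCH3 and MAML1 and in an RBPJ window other than the one shown. Of all windows, 6.32% hold 2 or more matches to CACNAG and 32.0% hold at least 1. CACGTG, which HES and HEY proteins can also bind, occurs in none of the 12 windows and in 6.35% of all windows. These matches describe the letters and are not evidence of binding.

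The libraries held 14409277 to 17539519 counts. KMT2C itself had 32.0, 30.8 and 27.3 CPM (counts scaled to library size) in siKMT2C, against 87.9, 82.0 and 72.6 CPM in siNC, a level of 37.1% of that in siNC (95% interval 29.7% to 46.5%, edgeR adjusted p = 0.00786). That call did not hold without siKMT2C replicate 1, siKMT2C replicate 2 or siNC replicate 2 (edgeR adjusted p = 0.0634, 0.0507 and 0.0593). All 10 keratinocyte markers were detected, at 17678 to 24274 summed CPM in siKMT2C and 18039 to 27375 in siNC, and none was called. Within this set, PERP was higher in every siKMT2C library (log2 fold change 0.62). TP63 (-0.69) and DSP (-0.37) were lower in every siKMT2C library, and the other keratinocyte markers overlapped between the groups. Endothelial markers summed to 0 to 0.0642 CPM in siKMT2C and 0 to 0.208 CPM in siNC, with PECAM1 and CDH5 at 0 counts in every library. Immune markers summed to 13.0 to 14.5 CPM in siKMT2C and 9.61 to 14.5 CPM in siNC, nearly all of it CD68, and 4 of the 6, among them PTPRC, CD3E and CD207, were at 0 counts in every library. The monocyte marker CD14 had 3, 5 and 2 counts in siKMT2C, against 17, 14 and 19 counts in siNC (log2 fold change -2.23, edgeR adjusted p = 0.0534). Summed fibroblast markers were low, at 13.5 to 17.5 CPM in siKMT2C and 20.7 to 31.1 CPM in siNC, and those of melanocytes lay at 6.97 to 8.93 CPM in siKMT2C and 7.96 to 15.7 CPM in siNC. Over all genes, 226 of the 15063 tested were called at an edgeR adjusted p under 0.05, or 1.50%, with 0.810% of genes lower and 0.690% higher in siKMT2C.

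DLL1, a Delta-family ligand, was the only member that passed the edgeR test in the comparison as designed, and it fell in siKMT2C. Of the 10 members 9 had enough counts to be tested, so 1 of 9 was called, beside 1.50% of all genes. DLL1 (ENSG00000198719, chromosome 6, 170282206 to 170306565, GRCh38) stood at 2.94, 4.18 and 4.67 CPM in siKMT2C, against 15.2, 12.6 and 16.8 CPM in siNC. Every siKMT2C library lay below every siNC library, with a wide gap between the groups. The log2 fold change was -1.92 (SE 0.23, n = 3 per group), with an edgeR adjusted p of 0.0135 and a level at 26.4% of siNC (95% interval 18.4% to 38.0%). A two-sided exact permutation test on DLL1 gave p = 0.1, and no smaller p is possible with 3 libraries in each group.

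The DLL1 call rests on few counts, 48, 65 and 76 in siKMT2C and 266, 182 and 298 in siNC, and it did not hold in 3 of the 6 fits that omit a library. Leaving out siKMT2C replicate 1 gave an edgeR adjusted p of 0.0772, leaving out siKMT2C replicate 2 gave 0.0630, and leaving out siNC replicate 2 gave 0.0593. The log2 fold change stayed between -2.06 and -1.75 in all 6 of these fits. The annotated DLL1 locus overlaps FAM120B on the other strand, and whether the counting used strand is not given in the sources used here. FAM120B had 64.3, 69.3 and 61.3 CPM in siKMT2C, against 71.0, 76.9 and 67.7 CPM in siNC (log2 fold change -0.15, SE 0.13, edgeR adjusted p = 0.620), and its groups overlapped. The fibroblast marker sums and CD14 counts given above were also lower in every siKMT2C library, and their part in the DLL1 difference was not tested. The markers were mixed, and none was called. COL1A1 (log2 fold change -0.77) and DCN (-1.57) were lower in every siKMT2C library. COL1A2 (-0.33), COL3A1 (0.78) and the immune marker CD68 (0.20) overlapped between the groups. In RNA from a whole culture, fewer cells that make a transcript and less transcript per cell cannot be told apart.

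The Jagged ligands did not pass the test. JAG1, the most abundant member per length in both groups, had 311, 293 and 308 CPM in siKMT2C, against 273, 259 and 295 CPM in siNC. The groups overlapped only at their edges, and the log2 fold change was 0.14 (95% interval -0.11 to 0.40, edgeR adjusted p = 0.573). JAG2 had 44.1, 40.6 and 35.9 CPM in siKMT2C, against 34.2, 43.0 and 54.2 CPM in siNC, with the siKMT2C values inside the siNC range. Its log2 fold change of -0.12 (95% interval -0.56 to 0.31, edgeR adjusted p = 0.800) turned to 0.052 without siNC replicate 3 and to 0.11 after correction for transcript GC content and length. The intervals leave room for a moderate change in either Jagged gene, JAG2 in particular, and hold none as large as that of DLL1.

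**Figure D1:**
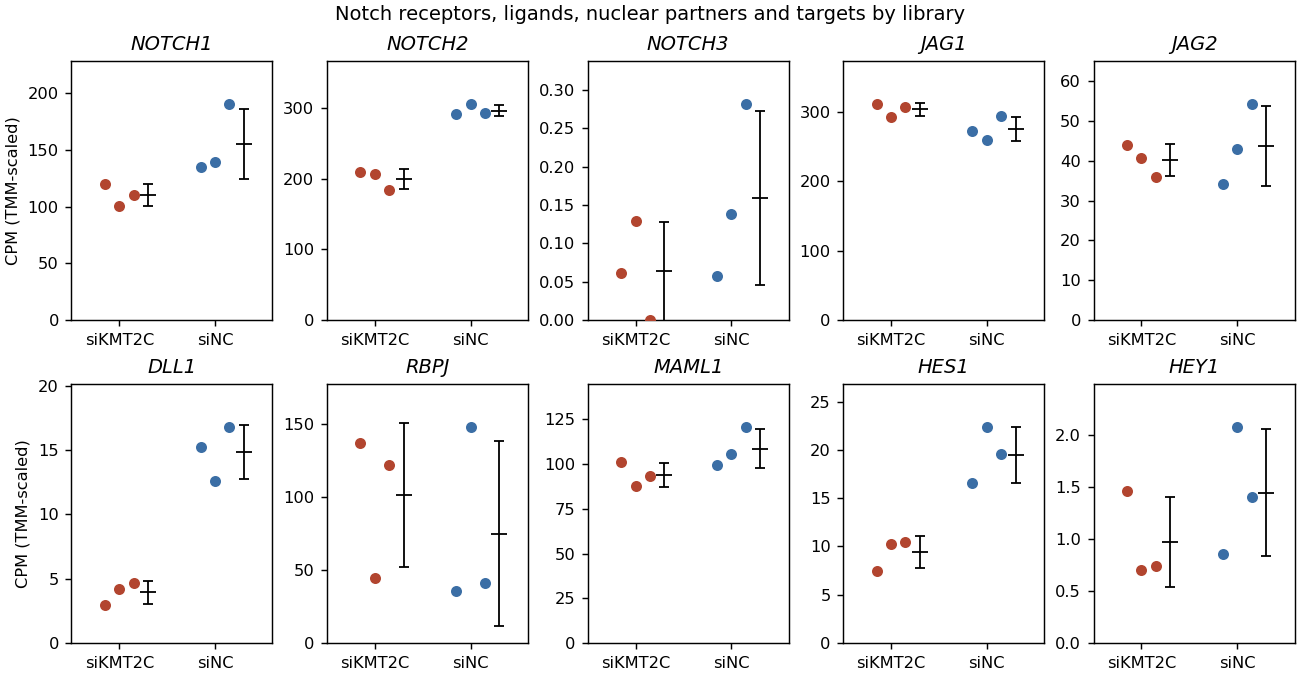
CPM of each of the 10 genes in every library, on axes that start at 0, with siKMT2C in red at the left and siNC in blue at the right; the black bar beside each group is its mean and SD over 3 libraries. The groups are apart for DLL1, HES1, NOTCH2 and NOTCH1, and RBPJ splits within both groups.

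Of the receptors, NOTCH1 and NOTCH2 were lower in every siKMT2C library than in any siNC library, but neither passed the threshold. NOTCH2 (ENSG00000134250, chromosome 1) had 210.3, 206 and 184 CPM in siKMT2C, against 291, 306 and 293 CPM in siNC. Its 3 siNC libraries lay close together, and its log2 fold change was -0.57 (SE 0.11, 95% interval -0.83 to -0.31, edgeR adjusted p = 0.0570). NOTCH2 stood just outside the threshold: over 15 alternative settings its adjusted p ran from 0.00310 to 0.234, with 6 settings under 0.05 and a log2 fold change between -0.60 and -0.41. The related gene NOTCH2NLA, which can share reads with NOTCH2, had 13.9, 18.1 and 14.1 CPM in siKMT2C, against 13.6, 13.0 and 16.3 CPM in siNC. Its longest annotated transcript has 5042 bases, against 11389 for NOTCH2. How the counting split reads between NOTCH2 and NOTCH2NLA is uncertain.

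NOTCH1 (ENSG00000148400, chromosome 9), the receptor most studied in epidermal differentiation, had 119.9, 100.7 and 110.3 CPM in siKMT2C, against 135, 139.9 and 191 CPM in siNC. The groups did not overlap, and siNC replicate 3 stood well above the other siNC libraries. Its log2 fold change was -0.49 (95% interval -0.87 to -0.11, edgeR adjusted p = 0.188), and it was -0.32 without siNC replicate 3 and -0.24 after correction for GC content and length. NOTCH1 transcripts are rich in GC (62.9%), and in siNC replicate 3 the fifth of genes richest in GC, those at 57.7% or more, lay 0.38 log2 units above their own means in the median, against -0.19 to 0.13 in the other 5 libraries. The part of this library-wide shift in the NOTCH1 difference was not tested beyond that correction.

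NOTCH3 and NOTCH4 were scarce. NOTCH3 had 1, 2 and 0 counts in siKMT2C, against 1, 2 and 5 counts in siNC, under the 3 counts used as a floor in all but 1 library, and was not tested. NOTCH4, which is not among the 10, had 1.35, 1.35 and 2.15 CPM in siKMT2C, against 0.858, 1.66 and 1.30 CPM in siNC (edgeR adjusted p = 0.677). Per length, NOTCH3 averaged 0.00588 FPKM (fragments per kilobase of transcript, scaled to depth) in siKMT2C and 0.0152 FPKM in siNC.

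The nuclear partners did not pass the test, and RBPJ varied widely within both groups. RBPJ (ENSG00000168214, chromosome 4) had 136, 44.6 and 121 CPM in siKMT2C, against 35.8, 148 and 41.1 CPM in siNC. Replicates 1 and 3 of siKMT2C and replicate 2 of siNC were high, the other 3 libraries were low, and no library lay between 44.6 and 121 CPM. The split cut across the siRNA groups, so the log2 fold change of 0.43 has a very wide interval (-0.96 to 1.83, edgeR adjusted p = 0.775) and moved between 0.10 without siNC replicate 1 and 1.39 without siNC replicate 2. Total counts were 16414777, 15921870 and 16401355 in siKMT2C, against 17326044, 14409277 and 17539519 in siNC, and did not follow the RBPJ levels. The mitochondrial share of counts, at 5.78%, 6.43% and 5.02% in siKMT2C, against 6.40%, 6.65% and 4.83% in siNC, did not follow them either. The annotated RBPJ pseudogenes RBPJP2, RBPJP5, RBPJP6 and RBPJP7 were at 0 counts in every library.

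The 3 genes whose log2 levels followed RBPJ most closely over the 6 libraries, named after the RBPJ values were seen, were RABGEF1 (Pearson r = 0.971), PDCD5 (r = 0.970) and RAB8B (r = 0.968), among 12919 genes with a mean log2 CPM of at least 1. RABGEF1 and RAB8B, which encode a Rab exchange factor and a Rab GTPase, showed a split of similar size, whereas PDCD5 moved little. RAB8B had 40.8, 10.9 and 56.0 CPM in siKMT2C, against 12.5, 49.6 and 12.0 CPM in siNC. RABGEF1 had 44.5, 14.6 and 41.0 CPM in siKMT2C, against 15.3, 35.6 and 14.0 CPM in siNC. The high libraries were the same for these genes as for RBPJ. With 6 points in 2 clusters these coefficients describe the libraries and carry no test.

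**Figure D2:**
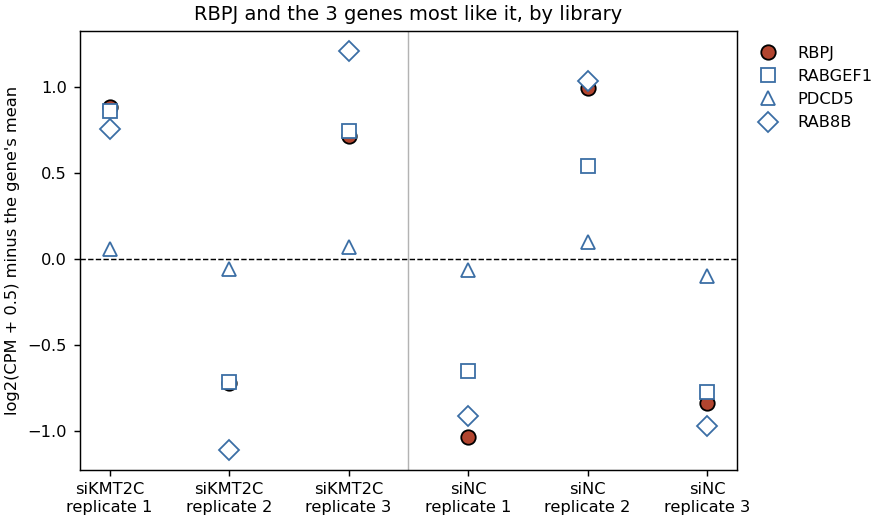
Deviation of log2(CPM + 0.5) from each gene's mean over the 6 libraries (vertical axis, log2 units) for RBPJ and the 3 genes most like it, with siKMT2C libraries at the left and siNC libraries at the right. RBPJ, RABGEF1 and RAB8B are high in siKMT2C replicates 1 and 3 and siNC replicate 2 and low in the other 3 libraries, while PDCD5 stays near 0.

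MAML1, the coactivator that bridges the Notch intracellular domain and RBPJ, was steady by comparison. It had 101, 87.8 and 93.4 CPM in siKMT2C, against 99.7, 106 and 121 CPM in siNC. The groups overlapped slightly, and the log2 fold change was -0.21 (95% interval -0.51 to 0.09, edgeR adjusted p = 0.476), with -0.13 without siNC replicate 3 and -0.06 after correction for GC content and length.

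The target HES1, a transcriptional repressor and the classic readout of Notch activity, was lower in siKMT2C but lay just outside the threshold. HES1 (ENSG00000114315, chromosome 3) had 7.46, 10.3 and 10.5 CPM in siKMT2C, against 16.6, 22.4 and 19.5 CPM in siNC. The groups were well apart, at 48.3% of the control level (95% interval 35.1% to 66.6%), and the log2 fold change was -1.05 (SE 0.20, n = 3 per group, edgeR adjusted p = 0.0508). Over 15 alternative settings the adjusted p ran from 0.000466 to 0.219 and was under 0.05 in 8, while the log2 fold change stayed between -1.15 and -0.91.

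HEY1 (ENSG00000164683), another repressor of the same superfamily, was near the limit of detection, with 24, 11 and 12 counts in siKMT2C and 15, 30 and 25 counts in siNC. In CPM it had 1.47, 0.707 and 0.737 in siKMT2C, against 0.858, 2.08 and 1.41 in siNC, and the groups overlapped. The log2 fold change of -0.56 had an interval from -1.59 to 0.47 (edgeR adjusted p = 0.587), and it moved between -0.98 without siKMT2C replicate 1 and -0.22 without siNC replicate 2. At this depth neither a fall like that of HES1 nor its absence could be shown. HES5, HEY2 and HEYL had 0 counts in every library, so they could not be compared.

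**Figure D3:**
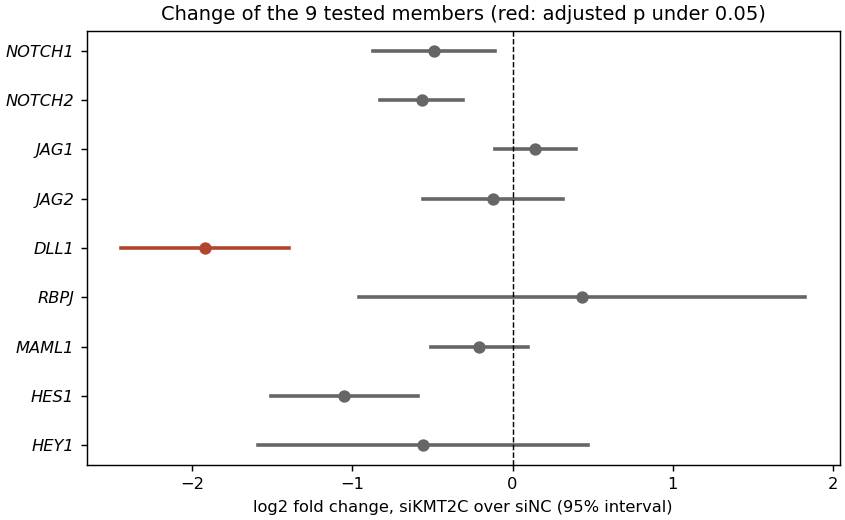
Log2 fold change of siKMT2C over siNC (points) with 95% intervals (lines) for the 9 tested genes; red marks an edgeR adjusted p under 0.05. DLL1 lies farthest from 0 at -1.92, HES1, NOTCH2 and NOTCH1 have intervals below 0 without passing the threshold, and the interval of RBPJ spans -0.96 to 1.83.

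Of the 9 tested members, 4 had an unadjusted edgeR p under 0.05 (DLL1, HES1, NOTCH2 and NOTCH1), all lower in siKMT2C, beside 16.9% of all genes at that p and 9.01% that were lower at it. The same 4 were those whose CPM ranges did not overlap, beside 24.1% of all genes without overlap and 12.3% that were lower without it. The median log2 fold change of the 9 was -0.49, and that of all genes tested was -0.00. The genes were proposed with earlier results of these data known, so these counts describe the members and are not a test of the pathway.

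Per length, in the deposited FPKM, the members kept a broad order of level. JAG1 led, at 27.0 ± 1.12 FPKM in siKMT2C and 24.9 ± 1.75 in siNC (mean ± SD, n = 3 each, here and below). MAML1 was next at 13.5 ± 1.08 in siKMT2C and 15.9 ± 1.62 in siNC. In siNC, MAML1, NOTCH2 (15.5 ± 0.350) and NOTCH1 (14.7 ± 2.98) lay within their spread of each other. In siKMT2C, NOTCH2 (10.3 ± 0.722) and NOTCH1 (10.3 ± 0.986) were level with each other and below MAML1.

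Lower in the order, the groups differed. HES1 averaged 3.60 ± 0.630 FPKM in siKMT2C, level with JAG2 (3.79 ± 0.394), whereas in siNC HES1 (7.59 ± 1.10) stood above JAG2 (4.21 ± 0.976). DLL1 averaged 1.04 ± 0.234 FPKM in siKMT2C and 4.03 ± 0.592 in siNC, where it was within the spread of JAG2. RBPJ averaged 5.11 ± 2.53 FPKM in siKMT2C and 3.84 ± 3.22 in siNC, a spread too wide to place it among its neighbours. HEY1 (0.104 ± 0.0468 in siKMT2C and 0.157 ± 0.0656 in siNC) and NOTCH3 came last.

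By a fixed rule, the genes most like HES1 and NOTCH2 over the 6 libraries were found by Pearson's r of log2 levels among the same 12919 genes. For HES1 these were PRRT1 (r = 0.999), ZNF185 (r = 0.989) and GSTK1 (r = 0.989), and none of these was called. ZNF185, an actin-associated protein, had 44.0, 49.1 and 49.5 CPM in siKMT2C, against 67.1, 80.5 and 69.4 CPM in siNC. For NOTCH2 they were NFRKB (r = 0.997), SORL1 (r = 0.995) and EGFR (r = 0.995), again without a call. EGFR, the epidermal growth factor receptor, had 951, 911 and 879 CPM in siKMT2C, against 1235, 1294 and 1253 CPM in siNC (log2 fold change -0.46, SE 0.10, edgeR adjusted p = 0.0718). Both sets of coefficients rest on 6 libraries in 2 groups, so any gene lower in siKMT2C by a steady amount scores high.

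The rest of the pathway was described from lists of 81 further genes, of which 70 were tested. None passed the edgeR test, beside 1.50% of all genes. Of the 70, limma-voom called 0, beside 214 of 15063 genes, and DESeq2 called 6, beside 864 of 14182 genes. At an unadjusted p under 0.05 were 15 of the 70, beside 16.9% of all genes, and 12 of these were lower in siKMT2C, beside 9.01% of all genes. Log2 fold changes were negative in 47 of the 70, beside 7578 of the 15063 genes tested, and their median was -0.15, beside -0.00 over all genes. Many of these values depended on which libraries were kept. Of 36 such genes with the smallest p by role, 22 moved by over 1.5 times or changed sign in at least 1 fit that omits a library. A gene can count in several fits: 11 moved without siNC replicate 1, 8 without siNC replicate 2 and 11 without siNC replicate 3. For siKMT2C replicates 1, 2 and 3 the numbers were 1, 4 and 8. The measure is a ratio, so values near 0 can pass it with a small shift.

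Among ligands and related proteins, DLK2, a non-canonical inhibitor of Notch, had 17.4, 16.8 and 18.2 CPM in siKMT2C, against 9.96, 10.4 and 13.7 CPM in siNC (log2 fold change 0.62, SE 0.18, edgeR adjusted p = 0.129). It was the ligand-like gene with the clearest positive value, opposite in sign to DLL1, and was called in 4 of 15 alternative settings. DNER (-0.26) and DLL3 (-0.18) were also not called, DLL4 had 0 to 4 counts a library, and DLK1 had none.

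Fringe enzymes add sugars that tune a receptor's response to Delta against Jagged ligands. LFNG, a Fringe gene, had 10.0, 12.3 and 17.2 CPM in siKMT2C, against 21.2, 19.4 and 36.0 CPM in siNC. The groups did not overlap, and its log2 fold change was -0.96 (SE 0.29, edgeR adjusted p = 0.154). It was -0.63 without siNC replicate 3, and LFNG was called in 4 of 15 alternative settings (adjusted p from 0.0127 to 0.418 over all 15). The sugar transferases EOGT (-0.63), POFUT1 (0.25) and POGLUT1 (-0.14) were not called. Of 6 genes in this group, 3 were negative and 3 positive, with a median of -0.01.

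Of 9 genes for the proteases that mature the receptor and release its intracellular domain, none was called, 6 were negative and 3 positive, and the median was -0.12. PSEN2, a catalytic subunit of γ-secretase, had 8.68, 8.54 and 7.68 CPM in siKMT2C, against 13.6, 9.41 and 11.5 CPM in siNC (log2 fold change -0.47, SE 0.19, edgeR adjusted p = 0.257). The shedding proteases ADAM17 (-0.27) and ADAM10 (0.22) and the convertase FURIN (-0.25) were not called, and FURIN was -0.02 without siNC replicate 3. Of the genes for ligand endocytosis, MIB1 (-0.26), MIB2 (-0.38), EPN2 (-0.22) and EPN1 (0.35) had the smallest p and were not called, and 0 of 6 tested genes had an unadjusted p under 0.05. Without siNC replicate 3, MIB2 was -0.11 and EPN1 was 0.76.

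Among regulators of receptor turnover, the Deltex ubiquitin ligases DTX4 and DTX2 had the smallest p. DTX4 had 27.6, 26.4 and 22.5 CPM in siKMT2C, against 31.5, 38.1 and 43.2 CPM in siNC (log2 fold change -0.56, SE 0.17, edgeR adjusted p = 0.142). DTX2 (-0.44) likewise did not overlap between the groups, and NUMB (-0.44), an inhibitor of Notch, and the kinase AAK1 (-0.19) did. DTX1, itself a Notch target in lymphocytes, had 3 counts in a single library.

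In the nuclear complex, MAML3, a paralog of MAML1, had 2.02, 1.54 and 2.27 CPM in siKMT2C, against 4.41, 4.15 and 4.34 CPM in siNC. Its 3 siNC values were tight and above every siKMT2C value, and the log2 fold change of -1.14 (SE 0.23) gave an edgeR adjusted p of 0.0603. MAML3 was called in 4 of 15 alternative settings. The acetyltransferases EP300 (-0.31) and KAT2B (-0.44) were also lower in every siKMT2C library, and CDK8 (0.32), which phosphorylates the intracellular domain, was higher in every siKMT2C library, with none of these called.

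RBPJ also recruits co-repressors when Notch is silent. HDAC1, a histone deacetylase in those complexes, had 132, 143 and 134 CPM in siKMT2C, against 90.8, 86.7 and 110.1 CPM in siNC (log2 fold change 0.51, SE 0.14, edgeR adjusted p = 0.114). HDAC1 was called in 5 of 15 alternative settings. SPEN (-0.40), the scaffold that RBPJ binds, and NCOR1 (-0.29) were lower in every siKMT2C library without being called, and TLE2 (-0.84) was scarce. The list as a whole was mixed, with 9 of 14 negative and a median of -0.13.

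**Figure D4:**
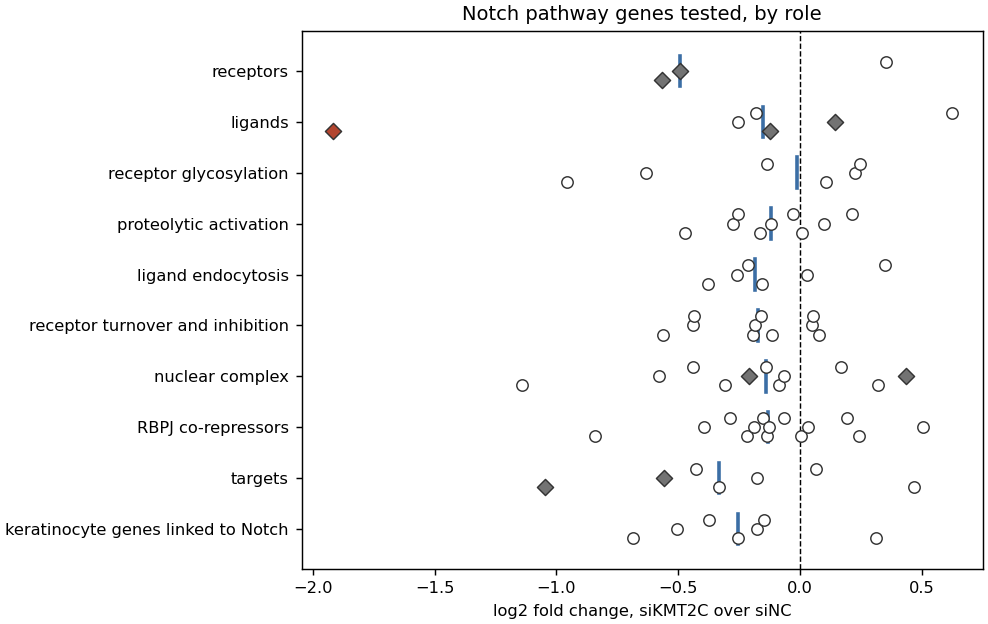
Log2 fold change of siKMT2C over siNC for the tested genes of each role (rows), with the 9 tested members as diamonds, other pathway genes as open circles and the median of each row as a blue bar; red marks an edgeR adjusted p under 0.05. DLL1 is the only red point, and the row medians run from -0.49 for the receptors to -0.01 for receptor glycosylation.

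The remaining target genes had low levels. NRARP (0.47), HES4 (-0.43), HES6 (-0.33) and HES7 (-0.18) all stood at or below 7.49 CPM in every library and were not called. Of keratinocyte genes linked to Notch, ITGA6, an integrin of basal cells, had 871, 865 and 867 CPM in siKMT2C, against 1215, 1327 and 1155 CPM in siNC (log2 fold change -0.51, SE 0.11, edgeR adjusted p = 0.0665). ITGA6 was called in 5 of 15 alternative settings. TP63, the basal-layer transcription factor that opposes Notch, had 141, 126 and 80.7 CPM in siKMT2C, against 174, 188 and 197 CPM in siNC (log2 fold change -0.69, SE 0.20, edgeR adjusted p = 0.144). CDKN1A (-0.37), a cell-cycle inhibitor induced by Notch1 in mouse keratinocytes, was lower in every siKMT2C library as well, without being called. Another integrin of basal cells, ITGB1, went the other way. It had 1797, 1529 and 1316 CPM in siKMT2C, against 1348, 1363 and 1025 CPM in siNC (log2 fold change 0.31, SE 0.16, edgeR adjusted p = 0.388). Of the 7 tested genes of this list, 6 were negative and 1 positive. The suprabasal genes KRT1 and LORICRIN had 0 counts in every library, and IVL had 0 to 10, so these differentiation products could not be compared. The suprabasal keratin KRT10 could be. It had 21.3, 20.9 and 21.4 CPM in siKMT2C, against 22.1, 18.3 and 30.1 CPM in siNC. Its siKMT2C values lay inside the siNC range (log2 fold change -0.15, SE 0.20, edgeR adjusted p = 0.763).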

How the data were processed

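The authors deposited raw read counts per gene, beside FPKM of the same libraries, per the file headers. The submitters' processing notes name CASAVA 1.8, TopHat2 2.0.6 and the mouse build mm10; the identifiers are human Ensembl ones, so that build was not used, and the counting program, annotation and strand setting are not given in the sources used here. FPKM as deposited were the counts rescaled, with a largest relative deviation in implied gene length of 5.01e-05 over 13748 genes. Symbols came from a gene name table (57532 of 58302 identifiers matched), coordinates from GENCODE 29 (GRCh38) and upstream sequences from RefSeq (GRCh38.p14).

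Counts were tested with edgeR 4.0.16 (R 4.3.3): filterByExpr, TMM scaling, robust quasi-likelihood F test of siKMT2C against siNC, Benjamini-Hochberg adjustment over 15063 genes, threshold 0.05. SE is the absolute log2 fold change over the square root of F, and 95% intervals use the test's degrees of freedom. CPM used TMM-scaled library sizes. The step was also run on simulated counts, drawn independently for each library without GC or length shifts between libraries. That run does not cover such shifts in the real libraries. Alternatives were scaling by RLE or by library size alone, omitting the filter or keeping genes with CPM of 1 or more in 3 libraries, limma-voom (limma 3.58.1), DESeq2 1.42.0, a replicate block, a loess correction (span 0.3) for GC content and length of the longest GENCODE transcript, with and without the block, and leaving out each library. Permutation tests and likeness used log2(CPM + 0.5).

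The members and lists were chosen with earlier results of these data known. Named genes are the members, KMT2C, at most 4 genes of smallest p per list and the 3 genes most like HES1 and NOTCH2. Those like RBPJ, FAM120B, NOTCH2NLA, KRT10 and ITGB1 were added after their values were seen. Some genes that the rule names are not reported here. Other genes named are listed at or near 0 counts or as cell type markers.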

Additional observations from a re-analysis of the deposited data

How the results depend on the processing

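The 9 tested members kept their direction under every alternative except JAG2, whose log2 fold change was 0.11 after correction for GC content and length, 0.088 with that correction and the replicate block, and between -0.27 and 0.052 when a library was left out. The number of members called was 2 with RLE factors or no filter (DLL1 and HES1), 3 with library size alone, DESeq2, the replicate block or the GC and length correction with or without the block (DLL1, HES1 and NOTCH2), 0 to 3 when a library was left out, and 1 otherwise; the cause was not tested. The other pathway genes gave 6 calls with DESeq2, 5 with the replicate block, 7 with the GC and length correction, 7 with the correction and block, and 0 to 3 when a library was left out. Over all genes the calls numbered 233 of 15063 with RLE factors, 238 of 15063 with library size alone and 310 of 29808 with no filter. They numbered 864 of 14182 with DESeq2, 968 of 15063 with the replicate block and 1293 of 15063 with the correction. With the correction and block they numbered 1323 of 15063 (765 higher, 558 lower). When a library was left out, they ran from 16 of 15432 without siNC replicate 2 to 620 of 15358 without siNC replicate 3. KMT2C stayed between -1.51 and -1.36 in those fits and lost its call without siKMT2C replicate 1, siKMT2C replicate 2 or siNC replicate 2 (edgeR adjusted p = 0.0634, 0.0507 and 0.0593).

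The labels do not say whether replicate numbers pair the samples. Deviations of same-numbered libraries correlated at 0.02, 0.14 and 0.45, and those of differently numbered libraries at -0.41 to 0.36. These values do not settle the pairing, so the block results above are given as alternatives only. Of the other named genes, DLL3 turned to 0.00024 with the correction, 0.016 with the correction and block and up to 0.30 when a library was left out, from -0.38. HES7 ran from -0.37 to 0.23 and PDCD5 from -0.0045 to 0.10 when a library was left out, and PDCD5 was -0.0835 with the correction and -0.0840 with the correction and block. HEY1, with 11 to 30 counts a library, and NOTCH3, with 0 to 5, are limited by depth.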
